A study of Nematostella vectensis with 8 samples.

Results

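The genes described here are the COUP-like nuclear receptors coup-like1 (NV2.23247, transcripts NV2t023247) and coup-like2 (NV2.1477, NV2t001477) and the forkhead gene foxL2 (NV2.14459, NV2t014459). They are 3 of 24520 genes and 6 of 35819 transcripts in the deposited tables, taken by identifier from the study's collection of published cnidocyte genes. The members were chosen from values of this same experiment. In a fit made here with the replicate number in the model, coup-like2 and foxL2 passed the study's thresholds as higher after the knockdown. They were the pair of transcription factors of the collection to do so, and coup-like1 was the uncalled paralog. Their response to the knockdown is therefore given as a description, without a test. Their levels relative to each other are a description too, since all 8 libraries entered that choice. Tests are given for their differences between embryo pools, a contrast that the choice did not use. The test of the replicate number shares its residual spread with the fit behind the choice, so it is not fully free of that choice.

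The libraries held bulk polyA RNA from whole wild-type gastrulae of the sea anemone Nematostella vectensis, raised at 24 °C and collected at 28 h post fertilization. They carried, by injection, a combination of shRNAs against NvfoxE-like, a forkhead gene expressed in developing cnidocytes, or a scrambled control RNA. Each group had 4 libraries, numbered as replicates 1 to 4, and each was made from roughly 1000 pooled embryos. A first library name prefix was shared by replicates 1 and 2 and a second by replicates 3 and 4, with 2 libraries of each group per prefix, while the batch label was the same for all 8 libraries. The libraries hold RNA of whole embryos, so fewer cells of a type and less RNA per cell cannot be told apart in these data.

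COUP transcription factors are orphan nuclear receptors. They bind DNA through a zinc finger domain, carry a ligand-binding domain with no settled natural ligand, and act mostly as repressors, and their relatives in flies and vertebrates are best known from photoreceptor and neuronal fate choices. FoxL2 is a winged-helix factor known in mammals for its role in maintaining ovarian granulosa cells. In Nematostella the 3 genes belong to the published set of genes active in cnidocytes, the stinging cells that are forming in the gastrula. The study's collection marks all 3 as regulated by the zinc finger factor Nvznf845. None of the 3 is marked there as regulated by NvfoxE-like, although the study's analysis used the same knockdown.

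Depth was between 18656270 and 26073612 estimated counts per library, so that the limit set by 3 counts lay between 0.115 and 0.161 CPM before TMM scaling. The CPM values given below are counts relative to the library size, scaled by TMM factors of 0.864 to 1.12. In a principal component analysis of log2 CPM, 74.5% of the variance lay on a component that separated replicate numbers, with scores from -148 for control replicate 2 to 104 for control replicate 3. The targeted gene NvfoxE-like measured 10.9, 7.10, 11.5 and 15.04 CPM in shRNA replicates 1 to 4 and 29.7, 15.8, 45.5 and 46.7 CPM in the controls. Every shRNA library lay below every control, as was the case for 0.784% of all tested genes.

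The receptor coup-like1 was the most abundant of the 3 genes and differed least between the groups. It measured 70.9, 68.8, 45.4 and 53.4 CPM in shRNA replicates 1 to 4 and 69.8, 76.0, 57.0 and 65.2 CPM in the controls. The groups overlapped over most of their range, and the shRNA library was lower than its control in replicates 2, 3 and 4 but not in replicate 1. The means were 59.6 ± 12.3 and 67.0 ± 8.01 CPM (SD, n = 4 each), and the fitted log2 fold change was -0.17 ± 0.23 (SE) without and -0.18 ± 0.09 (SE) with the replicate number as a block.

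Its paralog coup-like2 was higher in the shRNA library of all 4 pairs. It measured 37.9, 27.3, 15.03 and 23.5 CPM in shRNA replicates 1 to 4 and 13.2, 18.8, 10.03 and 14.6 CPM in the controls. The highest control, replicate 2, lay above the lowest shRNA library, replicate 3, so in CPM the groups separated within pairs only. The means were 25.9 ± 9.49 and 14.2 ± 3.65 CPM (SD, n = 4 each), with a fitted log2 fold change of 0.87 ± 0.33 (SE) without and 0.83 ± 0.17 (SE) with the block.

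The forkhead gene foxL2 was the least abundant member. It measured 17.3, 15.5, 11.04 and 14.5 CPM in shRNA replicates 1 to 4 and 10.2, 9.97, 7.55 and 8.34 CPM in the controls. The lowest shRNA library lay above the highest control, so these groups did not overlap. The means were 14.6 ± 2.65 and 9.03 ± 1.29 CPM (SD, n = 4 each), with a fitted log2 fold change of 0.69 ± 0.24 (SE) without and 0.69 ± 0.12 (SE) with the block.

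**Figure D1:**
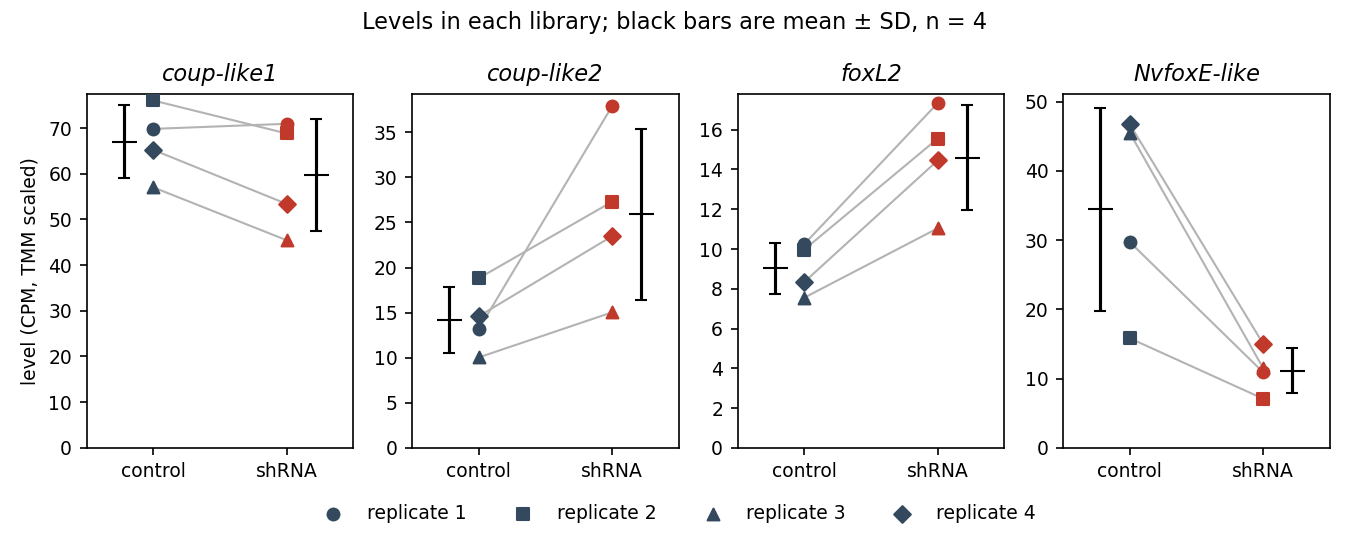
Levels in CPM (y axes, each starting at 0) of coup-like1, coup-like2, foxL2 and the targeted gene NvfoxE-like in the 4 control and 4 shRNA libraries. Each symbol is a replicate number, grey lines join libraries of the same number, and black bars are the mean ± SD; coup-like2 and foxL2 rise along every line while coup-like1 stays between 45.4 and 76.0 CPM.

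Among all 19002 genes tested, 0.484% had all shRNA libraries above all controls, as foxL2 did, and 9.05% were higher in the shRNA library of all 4 pairs, as coup-like2 and foxL2 were. At an adjusted p of 0.05 and a change of at least 1.5-fold, edgeR's quasi-likelihood test called 0 genes lower (0%) and 0 higher (0%) without the block, against 231 and 75 with the p left unadjusted at the same limits, and 47 and 9 by DESeq2. With the block it called 203 genes lower (1.07%) and 40 higher (0.211%), or 1.28% in either direction, and coup-like2 and foxL2 are among the latter by the way they were chosen.

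The ratios of the single pairs are given as a description. Choosing coup-like2 and foxL2 in a fit by pairs favours even ratios of these genes. The ratio of shRNA to control for coup-like2 was 2.88 in replicate 1 and 1.45, 1.499 and 1.61 in replicates 2, 3 and 4. Replicate 1 stood well above the others, and the SD of the 4 log2 ratios was 0.47. For foxL2 the ratios were 1.69, 1.56, 1.46 and 1.73, and the SD of the log2 ratios was 0.11. Counting error alone corresponds to a CV of 5.52% at its mean shRNA count and 7.09% at its mean control count. The small spread of foxL2 is therefore not read as a trait of the gene. For coup-like1 they were 1.02, 0.905, 0.797 and 0.819, with an SD of 0.16 on the log2 scale. NvfoxE-like was left at 36.7%, 44.9%, 25.3% and 32.2% of its control in the same pairs. The pair with the deepest loss of the target, replicate 3, had the smallest ratio of foxL2 and of coup-like1, and replicate 1 had the largest ratio of coup-like2; with 4 pairs no relation across them was tested.

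Subtracting the log2 ratios within pairs set the genes against each other. The log2 ratio of coup-like2 exceeded that of coup-like1 by 1.502, 0.68, 0.91 and 0.97 in replicates 1 to 4, a mean of 1.02 ± 0.35 (SD, n = 4). That of foxL2 exceeded coup-like1 by 0.74, 0.78, 0.87 and 1.08, a mean of 0.87 ± 0.15 (SD, n = 4). Both genes stood above coup-like1 in all 4 pairs. Their choice as called genes, and that of coup-like1 as an uncalled one, favours this order, so nothing is read from it. Between coup-like2 and foxL2 the difference was 0.77 in replicate 1 but -0.10, 0.036 and -0.11 in replicates 2, 3 and 4, so that their responses parted in a single pair.

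**Figure D2:**
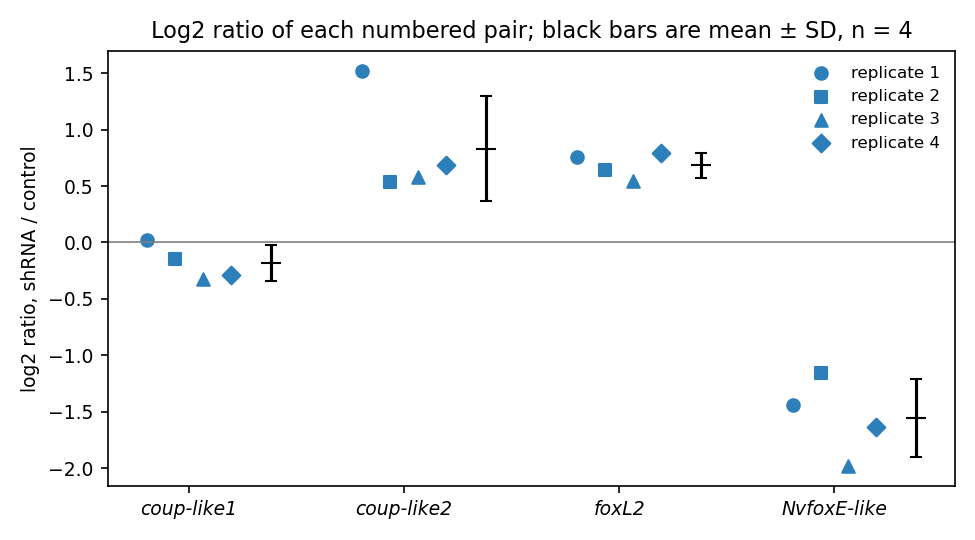
Log2 ratio of shRNA to control CPM (y axis) for each numbered pair and gene, with the mean ± SD of the 4 pairs in black. The foxL2 pairs span 0.55 to 0.79, 3 of the coup-like2 pairs lie between 0.54 and 0.69 with replicate 1 at 1.52, and the coup-like1 pairs lie between -0.33 and 0.023.

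Levels of different genes were compared per length, in TPM. The genes kept the order coup-like1, coup-like2, foxL2 in 8 of 8 libraries. In shRNA replicates 1 to 4, coup-like1 measured 41.9, 29.6, 41.8 and 44.8 TPM, and in the controls 41.0, 28.2, 48.8 and 50.6 TPM. The corresponding values of coup-like2 were 31.5, 16.6, 19.4 and 27.8 TPM in shRNA libraries and 10.8, 9.86, 12 and 15.8 TPM in controls. Those of foxL2 were 11.7, 7.73, 11.5 and 14.0 TPM and 6.91, 4.28, 7.42 and 7.43 TPM. Over all libraries coup-like1 was 2.42-fold above coup-like2 (mean log2 difference 1.27 ± 0.60, SD, n = 8), 4.79-fold above foxL2 (SD of the log2 difference 0.47), and coup-like2 was 1.98-fold above foxL2 (0.99 ± 0.27). The 4 control libraries alone gave log2 differences of 1.79, 2.69 and 0.91, in the same order in every library. Choosing genes that were higher after the knockdown favours low control values of coup-like2 and foxL2, so no p is given for the order.

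The ratio between genes within a library does not depend on how libraries are scaled. The TPM ratio of coup-like2 to coup-like1 was 0.752, 0.560, 0.463 and 0.620 in shRNA replicates 1 to 4 and 0.264, 0.349, 0.246 and 0.313 in the controls. Every shRNA value lay above every control value, whereas coup-like2 by itself overlapped between the groups in CPM but not in TPM. The ratio of foxL2 to coup-like1 was 0.279, 0.261, 0.276 and 0.311 against 0.169, 0.152, 0.152 and 0.147, also without overlap. Of all tested genes, 1.66% had a ratio to coup-like1 that was higher in every shRNA library than in any control, and 0.984% had such a TPM value. Since coup-like2 and foxL2 were chosen as called genes and coup-like1 as an uncalled one, nothing is read from these separations. The ratio of foxL2 to coup-like1 had a CV of 6.13% in controls and 7.5% in shRNA libraries (n = 4 each). Counting error of foxL2 alone amounts to a CV of 7.09% at its mean control count, and a CV from 4 values is too imprecise to set the spread between pools apart from it. The ratio of foxL2 to coup-like2 was 0.372, 0.466, 0.595 and 0.503 in shRNA libraries and 0.639, 0.435, 0.619 and 0.470 in controls, and these values overlapped.

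**Figure D3:**
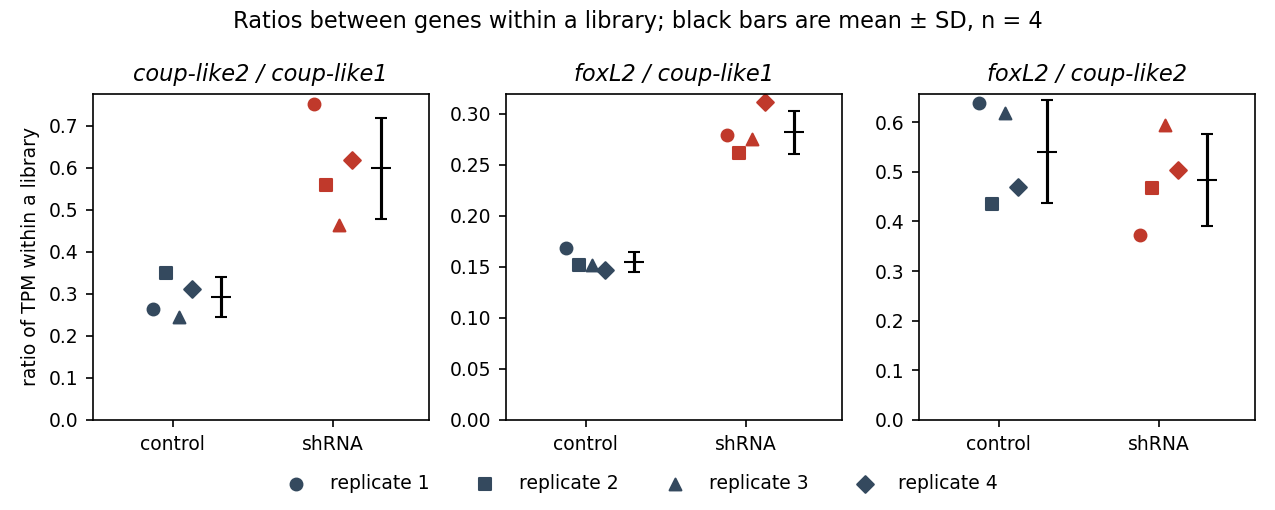
TPM ratios between the 3 genes within each library (y axes, starting at 0), for 4 control and 4 shRNA libraries, with the mean ± SD beside them. The ratios of coup-like2 and of foxL2 to coup-like1 do not overlap between groups, and the foxL2 to coup-like2 ratio runs from 0.372 to 0.595 in shRNA libraries and from 0.435 to 0.639 in controls.

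Placed among the 16 transcription factors of the collection by mean TPM in controls, coup-like1 had rank 3 at 42.2 ± 10.2 TPM (SD, n = 4), coup-like2 rank 8 at 12.1 ± 2.62 and foxL2 rank 13 at 6.51 ± 1.51. The neighbours of coup-like1 were Nvznf845 at 42.8 ± 35.7 and the HMG-box gene sox2 at 34.03 ± 17.7 TPM, and neither differed from it by more than these SDs. Likewise coup-like2 lay between the bZIP gene ATF2-like1 at 24.0 ± 15.1 and cnido-fos at 11.99 ± 5.46 TPM, within their spread. Below foxL2 came SoxA at 1.41 ± 0.551 TPM, a gap wider than both SDs, and above it cnido-jun at 7.25 ± 4.03, a gap within them. In shRNA libraries coup-like1 kept its rank at 39.5 ± 6.77 TPM, coup-like2 had rank 6 at 23.8 ± 6.99 and foxL2 rank 8 at 11.2 ± 2.58. Within a library the genes ranked between 2467 and 3506 (coup-like1), 3295 and 8869 (coup-like2) and 6809 and 10934 (foxL2) from the top of all genes.

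**Figure D4:**
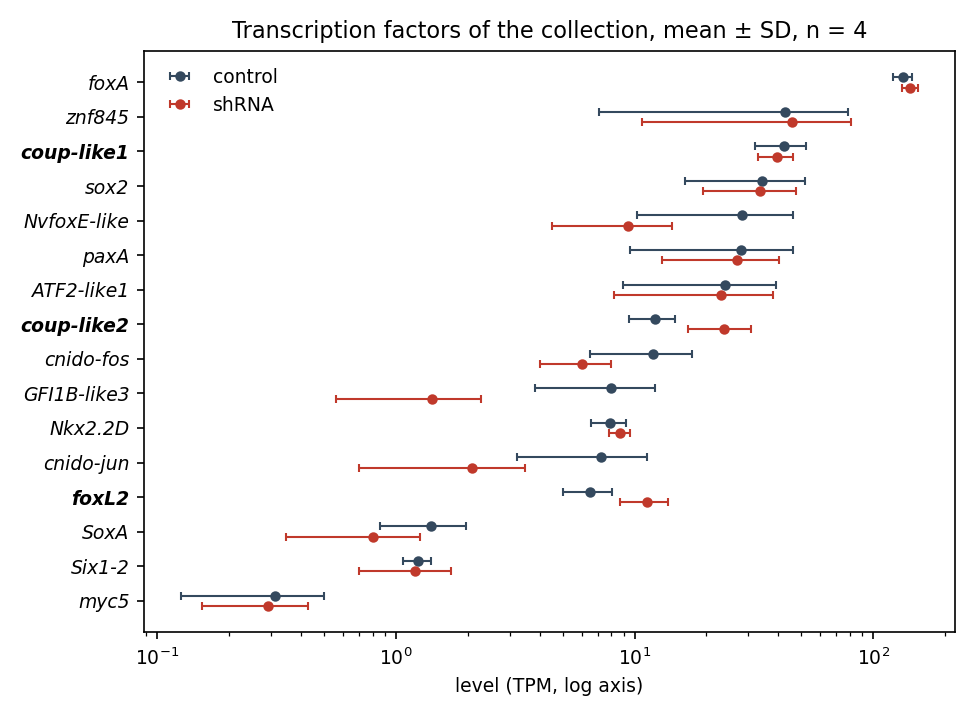
Mean TPM ± SD (x axis, log scale) of the 16 transcription factors of the collection in 4 control and 4 shRNA libraries, ordered by the control mean, with the 3 genes in bold. The SD of coup-like1, coup-like2 and foxL2 is small beside that of Nvznf845, sox2 and NvpaxA.

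On the CPM scale the 3 genes varied less between control pools than most genes. Their CV over the 4 controls was 11.9% for coup-like1, 25.8% for coup-like2 and 14.3% for foxL2, against a median of 42.0% over all tested genes, which placed them at the 5.96th, 24.5th and 8.65th percentile. At the mean control counts, counting error corresponds to a CV of 2.60%, 5.67% and 7.09%. With the replicate number in the model the fitted biological CV was 10.1%, 17.0% and 12.8%, beside a median of 14.8% over all genes. These lay at the 12.4th, 57.7th and 39.7th percentile, and the choice of called genes favours low values of coup-like2 and foxL2. In TPM the control means were 42.2 ± 10.2, 12.1 ± 2.62 and 6.51 ± 1.51 (SD, n = 4). Their spread on that scale was not set beside that of all genes.

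Differences between pools were tested with edgeR's quasi-likelihood F test over all genes. A test of the replicate number as a whole called 65.7% of all genes at an adjusted p of 0.05, and coup-like1 (adjusted p = 0.0173) and coup-like2 (0.0218) were among them, whereas foxL2 was not (0.0782). Choosing coup-like2 and foxL2 as called genes favours a low residual spread, which this test also uses, so their p-values here may be too favourable. Between the library name prefixes, with treatment in the model, 52.3% of genes were called (25.4% as lower in replicates 3 and 4, 26.9% as higher), and none of the 3 genes was. Levels in replicates 1 and 2 against 3 and 4 averaged 71.4 ± 3.21 and 55.3 ± 8.21 CPM for coup-like1, 24.3 ± 10.8 and 15.8 ± 5.61 for coup-like2, and 13.3 ± 3.73 and 10.3 ± 3.12 for foxL2 (SD, n = 4 each). The fitted log2 differences, 3 and 4 relative to 1 and 2, were -0.38 ± 0.16 (SE, adjusted p = 0.068), -0.57 ± 0.25 (0.0747) and -0.36 ± 0.18 (0.111). These fits count the 4 libraries of a prefix as separate, although each prefix holds 2 replicate numbers whose libraries are paired, so the SEs, p-values and the 52.3% are likely too favourable. The 95% intervals of the 3 genes, under the same limit, ran from -0.73 to -0.021, from -1.13 to -0.016 and from -0.76 to 0.040. For coup-like1 the 4 libraries of replicates 3 and 4 all lay below the 4 of replicates 1 and 2, as was the case for 28% of all genes, while 28.6% had them all above. On the TPM scale, where the median of all tested genes was higher by 0.79 in replicates 3 and 4, the same differences were 0.42, 0.22 and 0.43, which is below that median by 0.37, 0.57 and 0.36 for coup-like1, coup-like2 and foxL2. That places the 3 genes at the 38.4th, 30.9th and 38.7th percentile of all tested genes, a common position. Without replicate 3 the prefix test called 0 genes lower and 0 higher (3496 and 3761 with unadjusted p at the same limits), and the 4 controls alone also gave 0 and 0 (2440 and 3499 likewise). DESeq2 was not run on these subsets.

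Across pools the 3 genes moved together once the group means were taken out. Over the 8 libraries the Pearson correlation of log2 CPM was 0.93 between coup-like2 and foxL2, which share the response they were chosen for, but 0.32 between coup-like1 and coup-like2 and 0.12 between coup-like1 and foxL2. After each group's mean had been subtracted, r was 0.93 between the receptors, 0.92 between coup-like1 and foxL2, and 0.88 between coup-like2 and foxL2. Leaving out any replicate number kept the first pair between 0.78 and 0.95, the second between 0.76 and 0.96, and the third between 0.57 and 0.95. The libraries are paired by replicate number and share prefixes, so they are not independent of each other and these correlations are descriptions. For scale, 45 of 19001 genes had a correlation with coup-like2 at least as high as that of coup-like1 in this second measure.

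The genes of most similar pattern depended on whether the difference between the groups was left in. With it, in the collection coup-like1 was most like dkk3-like3 (r = 0.98 over 8 libraries), a gene of a secreted Dickkopf-type protein, the capsule gene Ngal (0.96) and the minicollagen mcol1 (0.95). Only 5 of 19001 genes had an r as high as dkk3-like3. By the same measure coup-like2 and foxL2 were each most like the other, which carries the rise they were chosen for, followed for both by the minicollagen ncol3, at 0.62 and 0.54. The third was the forkhead gene foxA for coup-like2 (0.51) and the homeobox gene Nkx2.2D for foxL2 (0.44). Many genes outside the collection were as close: 923 of 19001 had an r with coup-like2 as high as ncol3 and 2461 as high as foxA. For foxL2 the counts were 1078 for ncol3 and 2248 for Nkx2.2D. With group means subtracted, coup-like2 was nearest to coup-like1 (0.93), then Ncol (0.90) and NVE3843 (0.90), and foxL2 was nearest to NVE3843, ncol1 and mcol1 (0.93 each). For coup-like1 the same genes led, dkk3-like3 at 0.98, mcol1 at 0.97 and Ngal at 0.95. The collection holds cnidocyte genes only, and over all 19001 genes between 45 and 149 were at least as close to coup-like2 as these, between 56 and 87 to foxL2 and between 16 and 117 to coup-like1. Outside the collection, with the group difference left in, the closest genes carry identifiers only. For coup-like2 this was NV2.1255 (r = 0.96), at 46.8 ± 18.8 CPM in shRNA libraries and 23.8 ± 7.30 in controls (SD, n = 4 each), and for foxL2 it was NV2.20840 (r = 0.98), at 10.2 ± 2.242 and 5.63 ± 1.05 CPM. The closest to coup-like1, NV2.905 (r = 0.98), was near the detection limit at 0.386 ± 0.399 and 0.582 ± 0.416 CPM.

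The files list 2 transcripts of coup-like1, and the difference between their responses was not tested. The longer one, NV2t023247002.1 (1992 bases), held most of the gene and measured 37.7, 27.8, 35.97 and 40.9 TPM in shRNA replicates 1 to 4 and 35.3, 26.1, 41.7 and 40.9 TPM in controls, with no common direction. The shorter one, NV2t023247001.1 (1845 bases), measured 4.17, 1.76, 5.85 and 3.89 TPM in shRNA libraries and 5.74, 2.152, 7.16 and 9.71 TPM in controls. All 4 pairs showed less of it after the knockdown, at 0.726, 0.816, 0.817 and 0.400 of the control. For scale, 10.1% of all tested genes were lower in all 4 pairs in CPM. The share over all transcripts was not computed. This transcript held between 61.1 and 284 estimated counts per library. Its share of the gene was 9.63 ± 3.35% of TPM in shRNA libraries and 13.9 ± 4.76% in controls (SD, n = 4 each), with a wide overlap between groups. In the fit per transcript with the block the log2 fold changes were -0.71 ± 0.25 (SE) for the shorter and -0.12 ± 0.08 (SE) for the longer transcript. Replicate 4 contributed most to the difference of the minor transcript. Salmon divides reads that fit both transcripts between them by estimate, so these shares carry an error that the tables do not give.

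**Figure D5:**
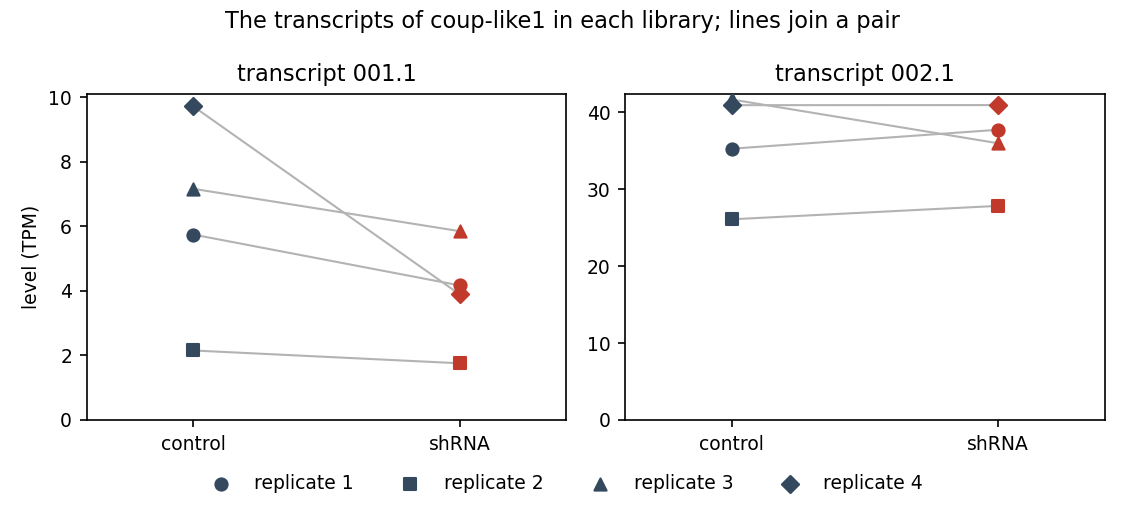
TPM (y axes, starting at 0) of the transcripts NV2t023247001.1 and NV2t023247002.1 of coup-like1 in the 4 control and 4 shRNA libraries, with lines joining libraries of the same replicate number. The minor transcript falls along all 4 lines, by most in replicate 4 (from 9.71 to 3.89 TPM), and the major one stays between 26.1 and 41.7 TPM. In CPM, 10.1% of all tested genes were lower in all 4 pairs.

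A single transcript of 1497 bases, NV2t001477001.1, made up coup-like2. Of the 3 transcripts of foxL2, NV2t014459002.1 (1756 bases) held between 99.3% and 100% of the TPM of the gene in every library, so the rise of foxL2 was the rise of this transcript, at 0.67 ± 0.12 (SE) on the log2 scale per transcript. NV2t014459001.1 (1844 bases) was at 0 in all 8 libraries. The summed counts were whole, within 0.01 of a count, in 2 of 8 libraries for coup-like1 and in 3 of 8 for coup-like2 and foxL2, so in the other libraries some reads of each gene were divided with other genes.

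The other 12 factors of the collection besides NvfoxE-like held no gene called higher, which the choice of coup-like2 and foxL2 fixes. In edgeR's test with the block 2 of them fell, beside 1.07% of all genes, and 10 missed the limits. Those that fell were GFI1B-like3, by 2.70 ± 0.25, and the Jun-type cnido-jun, by 1.99 ± 0.21 (SE, log2 scale). Both carry the study's mark as regulated by NvfoxE-like, as do SoxA and cnido-fos among the 12. Such marks come from this same knockdown, so the count is a description and not a separate test. The median over the 12 was -0.18 on the log2 scale, beside 0.017 over all genes. Nvznf845 was at 0.025 ± 0.12 and NvpaxA, a paired-box factor of cnidocytes, at 0.047 ± 0.18. Of the other 13 tested genes marked as regulated by Nvznf845 and not by NvfoxE-like, ncol1, ncol4, mcol1 and NVE13546 fell (4 of 13, beside 1.07% of all genes), 0 rose (beside 0.211%) and 9 were uncalled, and the median log2 fold change was -0.54. The marks for NvfoxE-like come from the study itself and are not independent of these libraries. Without the block 0 of the 12 and 0 of the 13 passed, by the same tool.

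Within pairs the summed level of cnidocyte markers was lower in the shRNA library, where coup-like2 and foxL2 were higher. The 9 markers were the capsule and venom genes ncol1, ncol3, ncol4, mcol1, Ngal, NEP3, NEP3-like, NEP8 and ggt. Their summed CPM was 1570, 1876, 629 and 1134 in shRNA replicates 1 to 4 and 1912, 1998, 1133 and 1633 in controls. It was lower in all 4 pairs, as were 10.1% of single genes. Its largest member ncol3 did not follow the sum, with ratios of shRNA to control of 1.12, 1.46, 0.774 and 0.956. Outside the set, TX60B-like3 of the collection had ratios of 1.73, 0.943, 0.703 and 1.26, and Ncol had 0.403, 0.325, 0.164 and 0.207. With the block 4 of the 7 tested markers fell, beside 1.07% of all genes, and 0 rose, beside 0.211%. Among those that fell, NEP3-like carries the study's mark as regulated by NvfoxE-like, which comes from this same knockdown. Across pools of a group the sum did not run against the 3 genes: replicate 3 had the lowest sum and the lowest CPM of coup-like1, coup-like2 and foxL2 in both groups. NEP3 was at 0 in shRNA replicate 2 and NEP8 in control replicate 2. The part of this shift in the values of the 3 genes was not tested, and no markers of other cell types could be linked to the identifiers used here.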

How the data were processed

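Each library was one Salmon table. The deposited estimated counts (expected counts) and TPM values were produced by the authors, who ran Salmon on Galaxy with Nvec200 transcripts. Its version and strand setting: not given in the sources used here. Counts were summed per gene and rounded. Genes passing filterByExpr (minimum count 10) were tested with edgeR 4.0.16 under R 4.3.3 (limma 3.58.1), TMM scaling and Benjamini-Hochberg adjustment, at an adjusted p of 0.05 and a 1.5-fold change, the study's limits. DESeq2 1.42.0, RLE scaling, no filter, length offsets, left-out replicates and the replicate block were alternatives. Fits were tested on simulated data.

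TPM levels were compared as log2(TPM + 0.01). The planned exact test of these levels is not used for the report, because its libraries are paired and entered the choice of genes. After subtraction of group means, the shRNA and control libraries of a number correlated across genes at 0.41, 0.83, 0.83 and 0.69, so numbers were taken to pair the libraries. Standard errors came from the F statistic. No labels name separate spawnings, so p-values measure the spread between these pools. Intervals and limits from counts cover counting error only. No library pair agreed within sampling noise.

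The members and lists were chosen with earlier results of these data known. Named were the 3 genes, NvfoxE-like, called factors, Nvznf845, NvpaxA and, for each gene, the 3 genes of the collection and 1 outside it with the highest correlation. Neighbours in level order, the markers at 0, ncol3 among the markers, and TX60B-like3 and Ncol outside them were named after their values were seen. Of the 42 genes of the collection 38 had an identifier, and 0 identifiers matched the RefSeq table. Correlations with group means subtracted, the TPM and library-total scales and the level comparison by replicate number were added after seeing the data.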

Additional observations from a re-analysis of the deposited data

Results flagged for a closer look

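The log2 ratio of shRNA to control for coup-like2 was 1.52 in replicate 1, apart from the other 3 pairs at 0.54, 0.58 and 0.69. The gap to the nearest pair was 0.85 of the whole range, beyond Dixon's 95% limit for 4 values, a limit used here only to point to the pair, since coup-like2 was chosen by these ratios. Of 24 sets of 4 values examined for the 3 genes and NvfoxE-like, 1 stood out in this way, and chance alone gives about 1 in 20.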

How the results depend on the processing

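The log2 fold changes of the 3 genes after the knockdown kept their sign under every alternative run, from -0.25 to -0.075 for coup-like1, from 0.60 to 1.01 for coup-like2 and from 0.64 to 0.79 for foxL2. Without replicate 1 coup-like2 was lowest. On the TPM scale, chosen after seeing the data, the difference of replicates 3 and 4 from 1 and 2 reversed to 0.42, 0.22 and 0.43 for coup-like1, coup-like2 and foxL2. Over the other alternatives it ran from -0.45 to -0.14, from -0.85 to -0.28 (without replicates 4 and 3) and from -0.46 to -0.12, negative throughout. The level differences, which carry no p in the report, were 1.79, 2.69 and 0.91 on the log2 scale in controls alone. With the mean of each replicate number as the unit, added after seeing the data, they were 1.27, 2.2602 and 0.99.

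Counts over all genes depended on the fit. Against 0 lower and 0 higher genes, the replicate block (paired fit) gave 203 and 40, DESeq2 47 and 9, and with the block RLE scaling gave 201 and 42, DESeq2 262 and 66, length offsets 199 and 37, and tests per transcript 19 and 0. Leaving out replicates 1 to 4 in turn gave 132, 237, 174 and 127 lower and 13, 34, 35 and 23 higher genes with the block, and 0 and 0 without it. The prefix counts of 4835 lower and 5108 higher were 0 and 0 in controls alone, and 0 to 5536 and 0 to 6188 with a replicate left out. Depth did not limit the detection of the 3 genes, which had at least 194 counts in every library. It did limit how finely the spread of foxL2 could be read, with a counting CV of 7.09% in controls.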

Other observations

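The receptors together measured 73.4, 46.2, 61.2 and 72.6 TPM in shRNA replicates 1 to 4 and 51.8, 38.1, 60.8 and 66.5 TPM in controls, and coup-like2 made up 42.9%, 35.9%, 31.7% and 38.3% of that sum against 20.9%, 25.9%, 19.7% and 23.8%. The long transcript NV2t014459003.1 of foxL2 (4892 bases) held 13.5 estimated counts in all, from shRNA replicates 1, 3 and 4, and was at 0 in the controls; at most 0.684% of the TPM of the gene came from it.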
